A study of Mus musculus with 312 samples.

Results

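Map1b and 8 other genes for microtubule-associated proteins were followed through single basal cells of the mouse mammary gland. The 9 genes were Map1b, Map1a, Map1s, Map2, Map4, Mapt, Map7, Map1lc3a and Map1lc3b, listed by name and found by the symbol of their Entrez identifier, out of 27179 gene identifiers in the files, of which 25136 were used. The genes were chosen by the measured levels of Map1b, which earlier results of these data had shown to be low in pregnancy, and by kinship with it, so the difference of Map1b between the stages is a description and not a test. Sorted mammary cells had been captured one by one in the chambers of a Fluidigm C1 chip, where cDNA was made, and a library per cell was sequenced. All cells came from mice of the strain FVB/NJ, with no treatment and no engineered allele named, and every cell was labelled basal, the outer contractile layer of the ducts. The adult cells carried 2 forms of title, 112 with the mark (2), called marked below, and 125 without it, called unmarked. The labels do not say what the mark means, how old the adult mice were, on which day pregnancy was sampled or from which animals cells came. The study's own account does give an age for its adult basal cells and a day for its pregnancy cells. The remaining 75 cells were labelled as basal cells from pregnancy. In the study's own account the C1 cells of pregnancy were total epithelium, so their basal origin rests on the labels and on the marker genes given below, and pregnancy cannot be told apart from the handling of the cells that carry that label.

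Microtubules are hollow polymers of alpha and beta tubulin that grow and shrink at their ends. Structural microtubule-associated proteins bind along the polymer, stabilise or bundle it and set which motors can walk on it. They are best known from neurons, where the Map1 family, Map2 and tau mark dendrites and axons, while Map4 and Map7 are the usual forms in other tissues. The light chain 3 proteins were found as partners of Map1a and Map1b and are now known mainly as the lipid-bound coat proteins of autophagosomes, the vesicles that carry cell contents to lysosomes.

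A cell was retained with at least 50000 read pairs in the genes used, called assigned reads, and 1000 genes with a read. This kept 81 of 112 marked cells, 58 of 125 unmarked cells and 71 of 75 pregnancy cells, with median assigned reads of 174910, 101320 and 230645, so depth and retention differed between the groups. No pair of cells held identical counts (0 of 312). Levels are in CPM, reads of a gene per 1e6 assigned reads of its cell. Each group was 1 sample because no animals are named, so no difference between groups has a replicate check, no p-value is given, and 95% intervals cover counting error only. The 11 core basal genes, among them the genes of basal keratins and contractile proteins, summed to a median of 41780 CPM in marked, 33667 CPM in unmarked and 45049 CPM in pregnancy cells. At least 3 of them reached 100 CPM in 81 of 81, 54 of 58 and 71 of 71 cells.

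Map1b, whose large protein is cut into a heavy and a light chain and links microtubules to actin in growing nerve fibres, was abundant in a share of adult cells and low in nearly all pregnancy cells. In marked adult cells it ranged from 0 to 5197 CPM with a median of 423 CPM and a mean of 814 CPM. In unmarked adult cells it ranged from 0 to 7326 CPM with a median of 117 CPM and a mean of 751 CPM, and in pregnancy from 0 to 443 CPM with a median of 7.98 CPM and a mean of 31.1 CPM. The adult sets lay far above pregnancy in mean and median, and all 3 ranges overlapped at their low end. The highest pregnancy cell was exceeded by 40 of 81 marked and 23 of 58 unmarked cells, and no pregnancy cell exceeded the highest adult cell.

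**Figure D1:**
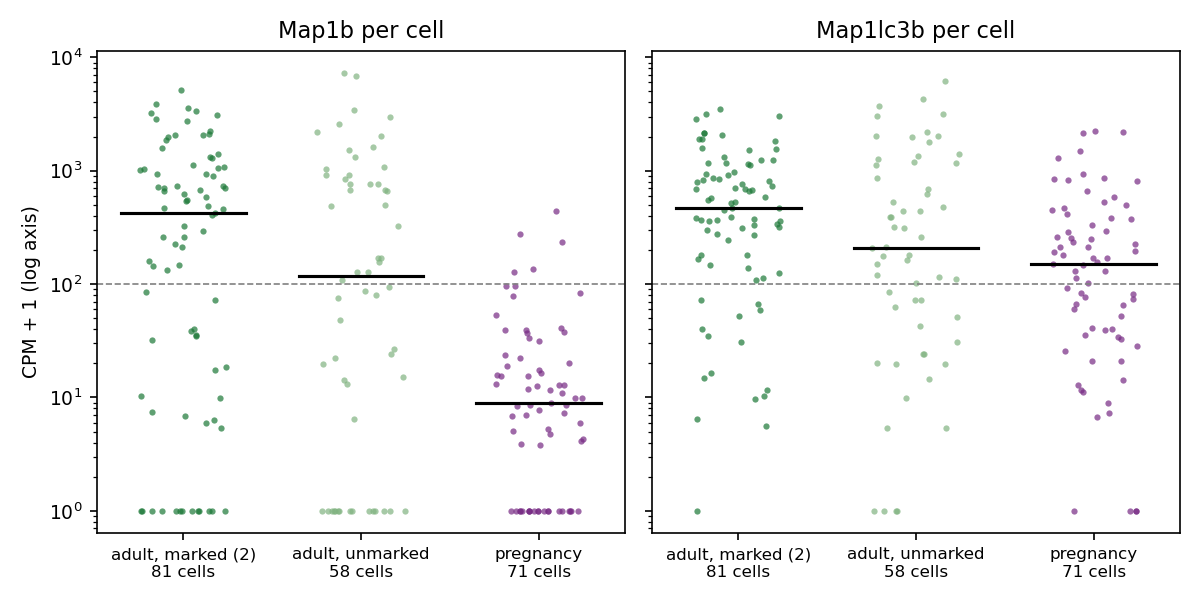
Level of Map1b (left) and Map1lc3b (right) in each retained cell as CPM + 1 on a log axis, with 1 point per cell, a black bar at the median of each group and a dashed line at 100 CPM. The Map1b median is 423 CPM in marked adult, 117 CPM in unmarked adult and 7.98 CPM in pregnancy cells, while the Map1lc3b medians of 473, 208 and 150 CPM lie closer together.

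The log2 ratio of mean CPM + 10 CPM, the added 10 CPM damping ratios of low genes, was -4.28 for Map1b in pregnancy over all adult cells. The marked cells alone gave -4.33 and the unmarked cells alone -4.21, while the unmarked over the marked cells gave -0.12. A mean of 10 CPM or more in any of the groups was reached by 9882 genes, called tested genes below, and 6 of them, or 0.0607%, had a ratio as low as that of Map1b or lower. With a called gene defined as one whose ratio was -1 or lower with the same sign against both adult sets, 10.9% of the 9882 genes were called lower in pregnancy. Since the gene was listed for this difference, nothing is read from its place.

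The adult difference between cells was wide. At least 1000 CPM of Map1b was reached in 23 of 81 marked cells, 12 of 58 unmarked cells and none of 71 pregnancy cells, where 3 counts of the total would be 4.23% of cells and the exact interval reaches 5.06%. The lower quartile was 16.4 CPM in marked and 1.37 CPM in unmarked cells. The distribution therefore held low cells in every group, and high cells in the adult groups. The 5 highest cells carried 29.1% of the summed Map1b of marked cells, 53.2% of that of unmarked cells and 55.0% of that of pregnancy cells.

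At least 100 CPM of Map1b was reached in 64.2% of marked cells (52.8 to 74.6%, exact Clopper-Pearson), 51.7% of unmarked cells (38.2 to 65.0%) and 7.04% of pregnancy cells (2.33 to 15.7%). The pregnancy interval lay below both adult intervals, which was so for 0.213% of the 9882 genes. The 5 pregnancy cells above that level held 443, 274, 234, 135 and 127 CPM, and the next cells below it 95.1 and 94.2 CPM. Low levels were common in pregnancy, since 71.8% of its cells had at least 1 Map1b read, against 84.0% of marked and 74.1% of unmarked cells. Among cells with a read, the median was 606 CPM in marked, 495 CPM in unmarked and 14.4 CPM in pregnancy cells. The presence of any read depends on depth, and median depth was highest in pregnancy. With every cell thinned to 50000 reads, 75.3% of marked, 69.0% of unmarked and 38.0% of pregnancy cells kept a Map1b read (intervals 64.5 to 84.2%, 55.5 to 80.5% and 26.8 to 50.3%). A pregnancy interval below both adult intervals was then found for 0.243% of genes. In 10 further random draws the pregnancy share ran from 35.2 to 45.1%, and its interval lay below both adult intervals in 7 of them.

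**Figure D2:**
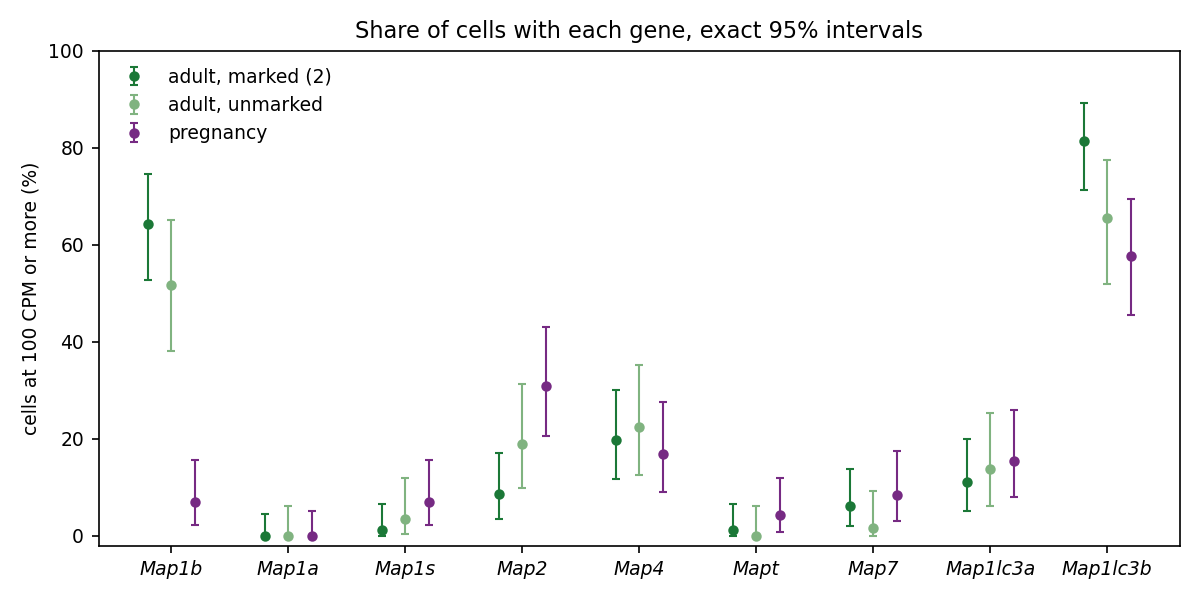
Share of retained cells (%) at 100 CPM or more for each of the 9 genes, with points for marked adult (81 cells), unmarked adult (58 cells) and pregnancy cells (71 cells) and bars for exact 95% binomial intervals. Map1b stands at 64.2, 51.7 and 7.04%, and it is the only one of the 9 whose pregnancy interval lies clear of both adult intervals.

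Markers of most other cell types were low. The 8 neuronal genes summed to a median of 0 CPM in each group and to at most 313 CPM in marked, 518 CPM in unmarked and 725 CPM in pregnancy cells. Elavl4 and Nefm were below a mean of 1 CPM in all 3 groups, while 0, 0 and 1 of the 8 had a mean of 10 CPM or more. At least 3 neuronal genes reached 100 CPM in 0, 0 and 1 cells. The 8 Schwann cell genes summed to medians of 0, 14.9 and 19.0 CPM and to at most 4298, 1556 and 1074 CPM. Foxd3 and Pmp2 had no read in any group, while 1, 3 and 3 of the 8 had a mean of 10 CPM or more. The 8 fibroblast genes did differ, with summed medians of 0, 28.8 and 561 CPM and ranges of 0 to 3262, 0 to 38417 and 55.2 to 5782 CPM. A mean of 10 CPM or more was reached by 1, 8 and 3 of the 8 fibroblast genes in marked, unmarked and pregnancy cells. Dcn, the matrix proteoglycan decorin, made up most of that sum in pregnancy, with a mean of 1113 CPM. The collagen genes Col1a1, Col1a2 and Col3a1 had means of 9.37, 1.94 and 22.8 CPM there. In unmarked cells Dcn had a mean of 677 CPM and these collagen genes 26.3, 133 and 122 CPM. At least 3 fibroblast genes reached 100 CPM in 0, 3 and 3 cells. The pericyte, endothelial and immune lists had summed medians of at most 3.31 CPM, although 1 marked cell reached 51182 CPM of immune genes, and the luminal list had medians of 805, 594 and 603 CPM. In the cells with 6 or more core basal genes and fewer than 3 genes of any of the non-epithelial lists (75 marked, 48 unmarked and 66 pregnancy cells), the Map1b ratio was -4.40. Leaving out cells with 3 or more luminal genes as well kept 58, 42 and 61 cells, with a ratio of -4.31 and 63.8, 52.4 and 6.56% of cells at 100 CPM. These choices of cells were made after the data had been seen.

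Within groups, Map1b followed neither depth nor these marker sums closely. Its Spearman correlation with assigned reads was -0.08 over 81 marked, -0.04 over 58 unmarked and -0.27 over 71 pregnancy cells, and that with the summed core basal genes was 0.07, 0.37 and -0.12, the 0.37 being the highest with any of the marker lists. The CPM of all genes in a cell share its total, so these values are descriptions only. The mitochondrial share of reads had medians of 9.65% in marked, 15.6% in unmarked and 18.4% in pregnancy cells and correlations with Map1b of -0.03, 0.05 and 0.06 within the groups, and its part in the difference between stages was not tested.

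In the Map1b gene, Entrez 17755 at chr13:99421464-99516602 of GRCm38 on the minus strand, no other RefSeq gene overlapped. Its promoter is shown beside that of Map1lc3b (Entrez 67443, chr8:121590438-121598760, plus strand), the other listed gene that was lower in pregnancy than in both adult sets, to let their start regions be compared. The sequences are the 250 bases before each start, 5′ to 3′ on the strand of the gene, from RefSeq on GRCm38.p6, at chr13:99516603-99516852 and chr8:121590188-121590437. Capitals mark, on either strand, the TATA box letters TATAAA and the GC box letters GGGCGG.
Map1b: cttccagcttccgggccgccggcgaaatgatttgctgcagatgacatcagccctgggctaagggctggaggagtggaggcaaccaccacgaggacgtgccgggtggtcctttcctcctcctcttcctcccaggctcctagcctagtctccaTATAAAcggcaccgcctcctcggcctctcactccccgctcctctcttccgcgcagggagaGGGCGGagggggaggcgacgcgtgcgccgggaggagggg
Map1lc3b: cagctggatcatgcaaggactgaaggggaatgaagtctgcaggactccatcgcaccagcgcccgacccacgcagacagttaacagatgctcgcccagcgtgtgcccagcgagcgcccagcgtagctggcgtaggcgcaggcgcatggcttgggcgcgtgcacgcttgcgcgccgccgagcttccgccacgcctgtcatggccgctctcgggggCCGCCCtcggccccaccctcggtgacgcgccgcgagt
The Map1b window held the TATA letters from 99 bases and the GC box letters from 39 bases before the start. The Map1lc3b window held a GC box on the opposite strand from 37 bases before the start and no TATA letters. The CCAAT box, also searched on both strands, was in neither window, and nor was the E-box with the letters CACGTG. Of 32851 promoter windows of this length, with all motifs searched on both strands, 32.7% held the GC box letters, 12.4% the TATA letters, 33.8% a CCAAT box and 6.02% that E-box. G and C made up 66.4% of the Map1b and 69.6% of the Map1lc3b window, with 19 and 30 CpG dinucleotides, where the medians over all windows were 52.4% and 6. A window was found for 7 of the 9 genes, and a match of letters is not a site of binding.

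The other members of the Map1 family were scarce. Map1a, the adult neuronal relative of Map1b, had 5, 12 and 19 reads in all in the marked, unmarked and pregnancy cells and reached at most 35.9, 31.8 and 30.3 CPM. It did not reach 100 CPM in any cell, where 3 counts of the total would be 3.70, 5.17 and 4.23% of cells and the exact intervals reach 4.45, 6.16 and 5.06%. Its means of 0.55, 1.22 and 1.22 CPM left it below the filter of 10 CPM, so 8 of the 9 genes entered the ratio counts. Map1a overlaps Trp53bp1 and Ppip5k1, and its few reads may belong to them because use of the strand in counting is not stated. Map1s, the short and widely expressed member, had means of 10.7, 8.17 and 23.9 CPM and medians of 0 CPM in all 3 groups. It was read in 7 of 81, 10 of 58 and 23 of 71 cells, and 1 marked cell of 774 CPM carried 89.8% of the marked sum. Its pregnancy ratio was 0.79, under the fold used for a call, and ran from 0.18 to 1.23 over the alternative settings. It was past the fold without the highest cell of each group (1.13) and with 1 CPM added in place of 10 CPM (1.23). By summed reads, and as a mean of log2 values, it was 0.44.

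Map2, the dendritic protein that spaces neuronal microtubules, ranged from 0 to 1614 CPM in marked cells (median 0, mean 62.6 CPM), from 0 to 3918 CPM in unmarked cells (median 8.65, mean 162 CPM) and from 0 to 1325 CPM in pregnancy cells (median 51.3, mean 121 CPM). The order of the groups thus depended on the summary, with unmarked cells highest by mean and pregnancy cells highest by median. A single unmarked cell carried 41.6% of the unmarked sum, and the mean without it was 96.4 CPM. At least 100 CPM was reached in 8.64% of marked (3.54 to 17.0%), 19.0% of unmarked (9.87 to 31.4%) and 31.0% of pregnancy cells (20.5 to 43.1%). The pregnancy interval lay above that of the marked but not that of the unmarked cells, and an interval above both was found for 2.48% of tested genes and for none of the 9.

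For Map2 the log2 ratio over the marked cells was 0.85, over the unmarked cells -0.40, and over both together 0.20. As a mean over cells of log2 CPM + 10 it was 1.17. The unmarked over the marked cells gave 1.25, the one ratio of the 8 genes past 1 in size between the adult sets, where 15.8% of genes were higher and 17.4% lower by that much. After thinning, a Map2 read was kept in 29.6% of marked (20.0 to 40.8%), 37.9% of unmarked (25.5 to 51.6%) and 64.8% of pregnancy cells (52.5 to 75.8%). That pregnancy interval lay above both adult intervals, as for 10.2% of genes, by a margin that was lost in each of 10 further draws, in which the pregnancy share ran from 56.3 to 70.4% and the unmarked share from 37.9 to 48.3%.

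Mapt, the gene of tau, the axonal microtubule protein, was read in 7 of 81 marked, 5 of 58 unmarked and 17 of 71 pregnancy cells, at means of 3.27, 1.99 and 15.6 CPM. Medians were 0 CPM in all groups, and the highest cells held 158, 52.1 and 422 CPM. Its ratio of 1.01 placed it just past the fold, with 0.95 against the marked and 1.09 against the unmarked cells, and it was the 1 listed gene called higher, where 13.8% of all tested genes were. It rested on few cells, since pregnancy cell 5 alone carried 38.2% of the pregnancy sum and the ratio ran from 0.17 to 2.15 over the alternative settings. Mapt is also in the study's own list of basal genes.

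Map4, the general microtubule-associated protein of dividing tissues, had means of 99.2, 67.6 and 71.8 CPM and medians of 6.01, 0 and 5.46 CPM in marked, unmarked and pregnancy cells. Its highest cells held 1049, 880 and 1193 CPM, and 19.8, 22.4 and 16.9% of cells reached 100 CPM, with intervals that all overlapped. The ratio was -0.42 over the marked cells and 0.08 over the unmarked ones. Including cells down to 1000 assigned reads moved the joint ratio from -0.23 to -1.87, and those cells included a marked cell with 17610 CPM of Map4, 569 of its 32312 reads.

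Map7, which binds microtubules of epithelial cells and recruits kinesin-1, was read in 20 of 81 marked, 15 of 58 unmarked and 31 of 71 pregnancy cells, at means of 22.7, 7.52 and 39.7 CPM. The highest cells held 543, 149 and 1109 CPM, and that pregnancy cell made up 39.3% of its group's sum. Its ratio was 0.60 against marked, 1.51 against the unmarked and 0.91 against all adult cells, so it was not called. The marked and unmarked cells differed by -0.90 on the same scale.

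**Figure D3:**
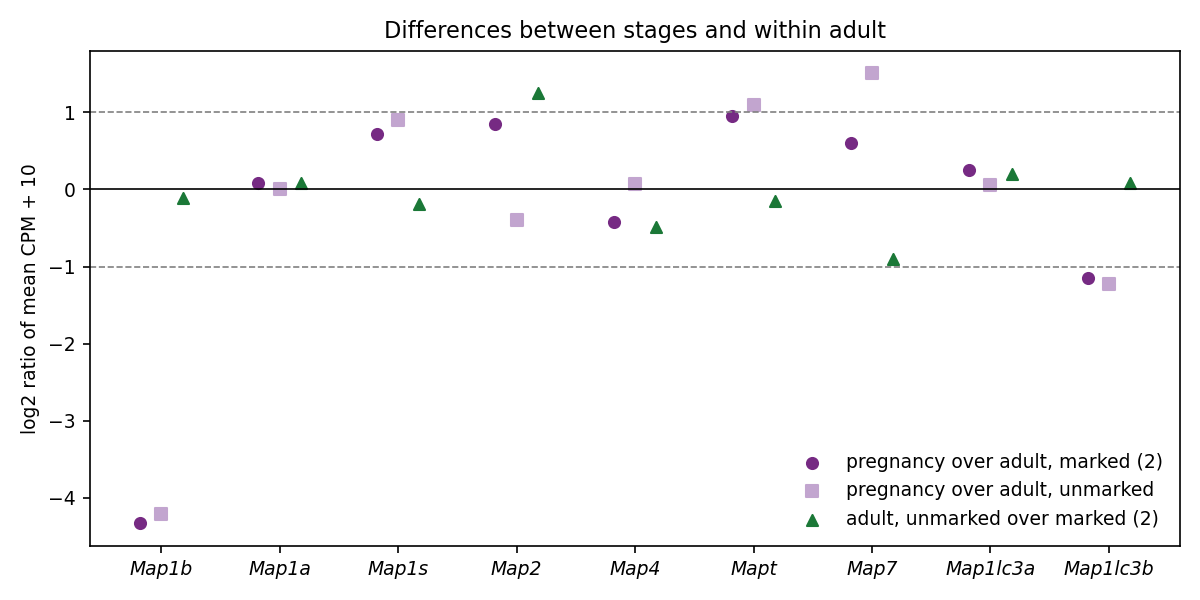
Log2 ratio of mean CPM + 10 CPM for each of the 9 genes, as pregnancy over marked adult cells (circles), pregnancy over unmarked adult cells (squares) and unmarked over marked adult cells (triangles), with dashed lines at 1 and -1. Map1b stands at -4.33 and -4.21 beside -0.12 within adult and Map1lc3b at -1.15 and -1.23 beside 0.08, while Map2 differs most within adult, at 1.25. Map1a lies below the filter on low means.

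Map1lc3b, light chain 3B, which coats autophagosomes once bound to lipid, was the most widely detected of the 9 genes. It ranged from 0 to 3526 CPM in marked cells (median 473, mean 743 CPM), from 0 to 6140 CPM in unmarked cells (median 208, mean 787 CPM) and from 0 to 2218 CPM in pregnancy cells (median 150, mean 329 CPM). The ranges overlapped widely, and only 9 of 139 adult cells exceeded the highest pregnancy cell. A share of 81.5% of marked (71.3 to 89.2%), 65.5% of unmarked (51.9 to 77.5%) and 57.7% of pregnancy cells (45.4 to 69.4%) reached 100 CPM, and the pregnancy interval overlapped that of the unmarked cells. Its ratio of means was -1.18 over all adult, -1.15 over the marked and -1.23 over the unmarked cells. Between the adult sets it was 0.08. Over the alternative settings the pregnancy ratio ran from -1.28 to -0.87. By median, however, the unmarked cells lay nearer to pregnancy than to the marked cells, and the 5 highest unmarked cells carried 44.7% of the unmarked sum.

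Of the 8 tested genes, Map1b and Map1lc3b were called lower, where 10.9% of all tested genes were. Both were also at -1 or lower against each adult set separately, where 4.44% of tested genes were. Map1b was listed for being low in pregnancy, so its place in these counts was known beforehand and nothing is read from it. None of the 8 genes was at 1 or higher against each set, where 9.26% of genes were. After thinning, 88.9, 87.9 and 87.3% of marked, unmarked and pregnancy cells kept a Map1lc3b read. In 10 further draws these shares ran from 90.1 to 95.1%, from 84.5 to 89.7% and from 84.5 to 88.7%, so the marked cells lay above pregnancy in each draw and the unmarked cells overlapped with it. The end of Map1lc3b overlaps that of Zcchc14, which had means of 64.2, 31.4 and 40.2 CPM.

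Map1lc3a, light chain 3A, had means of 34.1, 40.5 and 42.5 CPM in the marked, unmarked and pregnancy cells, medians of 0, 0 and 3.79 CPM and highest cells of 388, 355 and 350 CPM. It reached 100 CPM in 11.1, 13.8 and 15.5% of cells with intervals that overlapped throughout, and its ratio was 0.16. The 2 light chain genes thus had different ratios, 0.16 and -1.18, in the same cells, a difference with no replicate check.

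Levels of different genes were compared as mean RPKM, CPM per kilobase of exon. Map1lc3b was highest of the 9 in every group, at 434, 460 and 192 RPKM. Map1b came next in adult cells, at 68.7 and 63.3 RPKM, followed by Map1lc3a at 35.3 and 42.0 RPKM. In pregnancy Map1b stood at 2.62 RPKM, in place 8 of 9 by mean and close to Mapt at 2.89 RPKM, with Map1lc3a at 44.0, Map2 at 21.9, Map7 at 10.2, Map4 at 8.14 and Map1s at 7.29 RPKM above it. By median RPKM the place of Map1b was 2 in both adult sets and 4 in pregnancy, where it stood at 0.67 beside 0.62 for Map4, and Map7, Mapt, Map1s and Map1a had medians of 0. Among all 25136 genes, by mean RPKM, Map1b took place 1134 in marked, 1350 in unmarked and 8718 in pregnancy cells. Map2 and Map4 in marked cells, at 11.3 and 11.2 RPKM, were hardly apart, and with 1 sample a group no neighbours in the order could be tested.

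**Figure D4:**
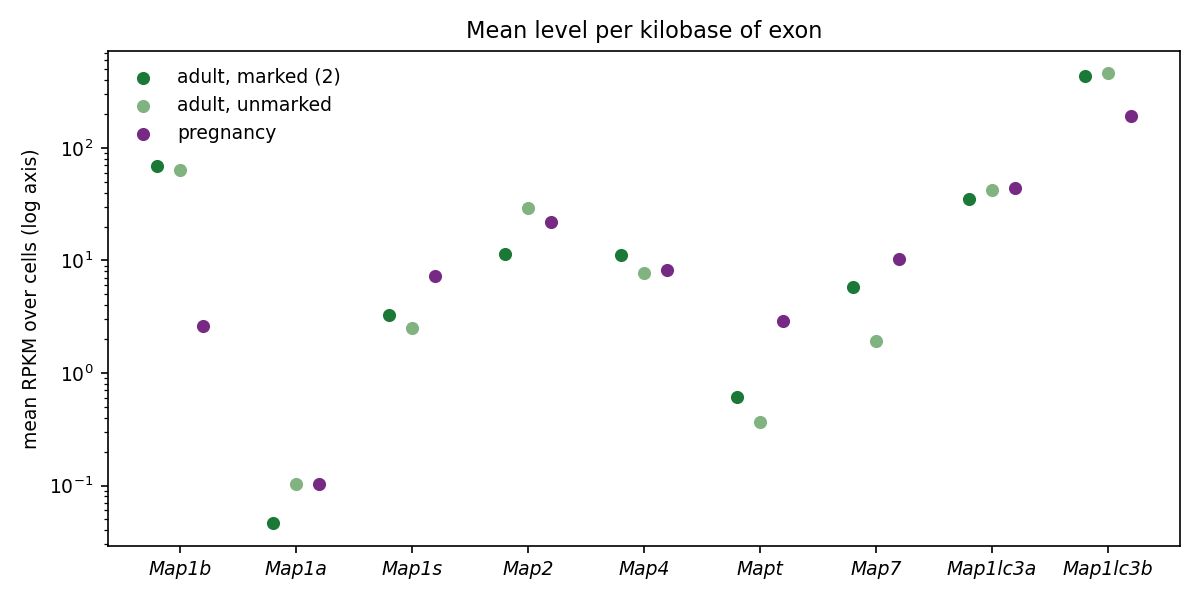
Mean RPKM over retained cells on a log axis for each of the 9 genes, with points for marked adult, unmarked adult and pregnancy cells. Map1b moves from 68.7 and 63.3 RPKM in the adult sets to 2.62 RPKM in pregnancy, while Map1lc3b is highest throughout.

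As a ratio of group means, Map1b made up 45.5% of the summed CPM of the 9 genes in marked cells, 41.1% in unmarked cells and 4.59% in pregnancy cells. Both Map1b and Map1lc3b reached 100 CPM in 44 of 81 marked, 23 of 58 unmarked and 3 of 71 pregnancy cells, and Map1lc3b alone did in 22, 15 and 38 cells. Since Map1b reached 100 CPM in only 5 of 71 pregnancy cells, the pair could occur in no more than those. Its count therefore restates the Map1b difference and nothing more is read from it. Within groups their levels had a Spearman correlation of -0.03 in the marked cells, were weakly related in the unmarked cells, with 0.24, and had -0.15 in the pregnancy cells. The other 7 genes were few per cell, with a median of 1, 1 and 2 of them keeping a read after thinning.

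The genes whose level was most like that of Map1b across adult cells were sought among 4338 genes with a read in at least 25% of retained adult cells, by the smaller of the 2 Spearman correlations in the marked (81) and unmarked (58) cells. Hspa2, a heat shock chaperone, came first with 0.44 and 0.47, and Synj2bp, a mitochondrial outer membrane protein, came next with 0.39 and 0.52, where the median gene had 0.09 and 0.06. Apmap, Ssbp2, Ptprz1, a receptor tyrosine phosphatase, and Tm4sf1, a membrane protein, followed with smaller values between 0.32 and 0.33. In the 71 pregnancy cells, where Map1b was mostly at a few reads, Hspa2 had 0.11 and Synj2bp 0.02. The most opposite genes were Crispld2 at -0.30 and -0.40, Cst3, the protease inhibitor cystatin C, at -0.24 and -0.27, and Gm12816 at -0.20 and -0.21. The correlations were moderate at most, the genes of a cell share its total and depth, and with thinned reads only 4 of the 6 like genes stayed among the 6 highest, and between 2 and 4 in further draws.

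Other genes of microtubules and autophagy were taken as 8 lists of 111 genes in all, of which 85 were tested. Of these, 7 (8.24%) were called lower and 13 (15.3%) higher in pregnancy, close to the 10.9 and 13.8% of all tested genes, and the median ratio was 0.06, against -0.05 over all tested genes. The counts depended on the scale, since the mean of log2 values gave 1 lower and 7 higher, where 0.536 and 7.73% of all tested genes were. None of the lower genes came near the ratio of Map1b.

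Of 15 tubulin genes 9 were tested, and 3 were called lower and none higher, with a median ratio of -0.94. Tuba4a, an alpha tubulin, had means of 434 CPM in marked, 123 CPM in unmarked and 90.0 CPM in pregnancy cells and a ratio of -1.65. The beta tubulins Tubb2a (418, 344 and 187 CPM) and Tubb4b (327, 162 and 123 CPM) both had -1.01. Against the unmarked cells alone the ratios of these genes were -0.41, -0.85 and -0.37, smaller in size than the -2.15, -1.12 and -1.34 against the marked cells. One pregnancy cell carried 53.7% of the pregnancy sum of Tuba4a, without which, and without the highest adult cell, the ratio was -2.30.

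Among 13 tested lattice-binding proteins outside the 9 genes, 2 were called lower and 3 higher. Dst, a cytoskeletal linker gene whose isoforms were counted together, had means of 1572, 1089 and 634 CPM and a ratio of -1.10. Map9, a spindle-associated protein, had 4.21, 0.99 and 56.5 CPM and a ratio of 2.37, and Eml1 had 11.2, 28.7 and 54.5 CPM and 1.18. A single cell carried 59.7% of the pregnancy sum of Eml1, and without the highest cell of each stage its ratio was 0.69, under the fold for a call. Of 8 tested plus-end proteins only Ckap5, a polymerase of growing ends, was called, at 301, 116 and 88.2 CPM and a ratio of -1.25. Its unmarked mean lay nearer to that of pregnancy than to that of the marked cells, so the call rested mainly on the marked cells. None of 6 tested destabilising and severing proteins and none of 14 tested motor proteins was called in either direction.

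Of 8 tested kinases of microtubule-associated proteins, Mark1, which phosphorylates tau and Map2, was called higher, with means of 19.1, 13.0 and 87.0 CPM and a ratio of 1.87. Of 16 tested genes of Atg8 relatives and autophagy, 1 was called lower and 3 higher. These were Atg12 (34.0, 16.4 and 147 CPM, ratio 2.10) and Atg3 (12.2, 19.6 and 58.2 CPM, ratio 1.43), parts of the machinery that joins light chain 3 to lipid, and Optn, an autophagy receptor, whose ratio of 2.50 came to 0.63 without the highest cell of each stage. Of 11 tested mitotic spindle proteins 6 were called higher and none lower, with a median ratio of 1.15. Ckap2 had means of 10.4, 2.79 and 127 CPM and a ratio of 2.99, Tpx2 had 21.1, 10.4 and 54.8 CPM and 1.28, and Prc1 had 18.3, 44.7 and 82.3 CPM and 1.23. A Ckap2 read was kept after thinning in 60.6% of pregnancy cells, against 4.94 and 5.17% of marked and unmarked cells.

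**Figure D5:**
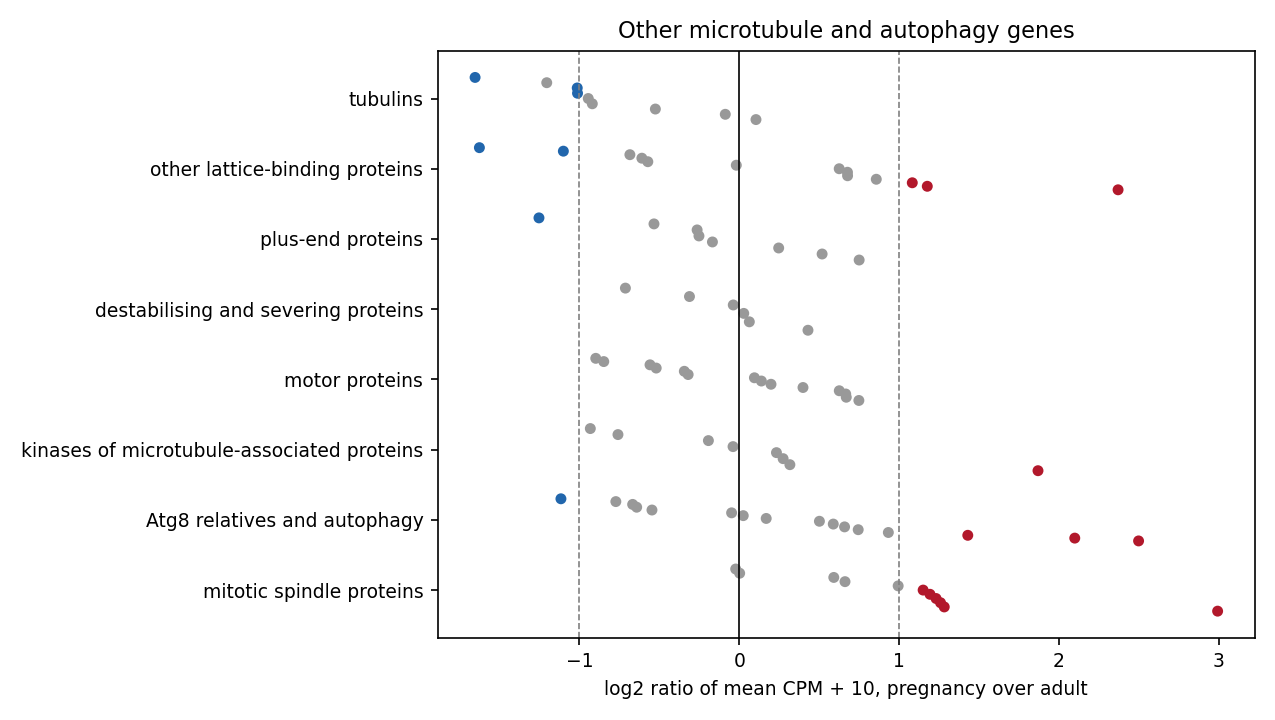
Log2 ratio of mean CPM + 10 CPM in pregnancy over adult cells for the 85 tested genes of 8 lists, with 1 point per gene, spread vertically for legibility. Blue points were called lower and red points higher, grey points were not called, and grey points past a dashed line at 1 or -1 had opposite signs against the 2 adult sets. The tubulins lie mostly to the left and the spindle proteins to the right, and no point lies near the -4.28 of Map1b.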

How the data were processed

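The deposited values were whole-number counts of read pairs per Entrez gene and cell, not normalized. The authors aligned reads to mm10 with Subread 1.5.0 and assigned them by featureCounts, using the RefSeq annotation inside Rsubread. Use of the strand is not stated, and counts hold no molecular identifiers, so PCR copies are counted. Each file gives 1 cell, and its exon lengths gave RPKM. Identifiers were named from RefSeq of GRCm38, and 15 mitochondrial genes, 124 ribosomal protein genes and 1904 identifiers without a symbol (1.66% of reads) were left out.

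Python 3.11.15, numpy 2.4.6, pandas 2.3.3, scipy 1.17.1 and matplotlib 3.10.9 were used. Retained cells spanned 51464 to 405910 assigned reads. Ratios, calls and thinning follow the definitions given with their first values, and no doublet caller was run. Named genes of the wider lists were up to 3 per direction and list, with the largest of the smaller ratios against the 2 adult sets, among called genes that reached a mean of 50 CPM in the higher group. The members and lists were chosen with earlier results of these data known. The log2 ratio was checked on simulated counts with known folds, drawn without added spread between cells. That check does not cover the spread of real cells, the thinning, the correlations or the promoter search.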

Additional observations from a re-analysis of the deposited data

Results flagged for a closer look

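Map1b reads were also present in cells left out for low depth, which entered no main comparison. The 98 adult cells left out held 419 Map1b reads of 1171743 assigned, or 358 reads per 1e6 (324 to 394, exact binomial 95% interval), and the 4 pregnancy cells left out held 9 of 93619, or 96.1 reads per 1e6 (44.0 to 182). In the retained cells the same pooled quantity was 774 in adult and 30.6 in pregnancy cells, so the stages kept their order among the cells left out at a smaller distance. By adult set, the cells left out held 223 (181.8 to 271.2) in marked and 442 (394.9 to 493.5) in unmarked cells. The marked interval just overlapped that of pregnancy, which reached 182.5. The order of the adult sets was the opposite in retained cells, at 811 and 695. The difference between the stages was not tested, and the intervals treat reads as independent although PCR copies are counted. The reads came from 60 of the adult and 3 of the pregnancy cells left out.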

How the results depend on the processing

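The Map1b ratio stayed below 0 in all 14 alternatives, from -4.62 to -2.76. It was -4.62 with a pseudocount of 1 CPM, -2.76 with 100 CPM, -3.97 with cells down to 1000 assigned reads, -4.47 with size factors from 705 genes and -2.93 as a mean of log2 values. The share of cells with Map1b in marked, unmarked and pregnancy cells was 75.3, 72.4 and 45.1% at 10 CPM, 45.7, 36.2 and 0% at 500 CPM, 75.3, 69.0 and 38.0% with thinned reads, and 84.0, 74.1 and 71.8% with any read. Of the wider lists, 12 genes were lower and 19 higher with a pseudocount of 1 CPM (17.5 and 20.3% of all tested genes), 2 and 1 with 100 CPM (0.88 and 0.891%), and 1 and 7 by the mean of log2 values (0.536 and 7.73%). Map1lc3b stayed below 0 in all alternatives run, and Map2, Map4, Map1a and Map1lc3a took both signs. Shares of the scarce genes are limited by depth. The further draws of thinned reads were chosen after seeing the data. No paired analysis was possible because the numbers in the titles count cells, each group is 1 sample and no result comes from a test.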
